A study of Rattus norvegicus with 8 samples.

Results

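The genes described here belong to the folate cycle of the mitochondrion and cytosol and to the serine synthesis route that feeds it, with Asns from outside both routes. The set of 9 genes was chosen by the measured difference between stressed and control rats for Mthfd2 in these arrays and by pathway, so its own differences are given as a description with no test. Of the 9 genes, 8 had a probe under their name, among 26514 names on the array, and Mthfd1l had none. These 8 genes were covered by 10 of the 30367 probes. Each of the 10 probes was well above background on all 8 arrays, and none was saturated.

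Lumbar L6S1 spinal cord of male Wistar rats aged 12 weeks was measured on Agilent 1-colour arrays, 1 array per rat. The 4 stressed rats were exposed to water avoidance (WA) stress, in which a rat sits on a small platform surrounded by water, on 10 consecutive days. Their tissue was taken 24 hours after the last session and compared with that of 4 control rats. Meninges were removed at dissection, and the tissue holds neurons and glia together.

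In the one-carbon pathway, serine hydroxymethyltransferases take a carbon unit from serine and load it on tetrahydrofolate, and the methylenetetrahydrofolate dehydrogenases pass it on to formate, purines, thymidylate or methionine. The mitochondrion and the cytosol hold parallel enzymes, and serine and formate travel between them. In the nervous system serine is made largely in astrocytes, from a glycolytic intermediate, and several genes of both routes are known targets of the transcription factor ATF4.

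Values are log2 processed signals minus the 75th percentile of the array, so that each probe can be compared between rats but not with another probe. A difference is stressed minus control on this scale, and its standard error (SE) comes from limma. An array showed at least 23005 and at most 24066 probes well above background. Before scaling, the 75th percentile of the control arrays averaged 2156 ± 228 (SD, n = 4) and that of the stressed arrays 1871 ± 87.1 (SD, n = 4), with p = 0.114 in a two-sided exact permutation test. Precision is limited by the number of arrays. All arrays lay on 1 slide, with stressed rats in row 1 and control rats in row 2, so that row and group cannot be told apart.

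Control replicate 2 stood apart from the rest of its group. Along the leading principal component of the tested probes, which held 54.1% of the variance, control rats scored -52.1, 46.1, -56.2 and -39.4 in replicate order. The stressed rats scored 34.5, 25.7, 33.2 and 8.23, so that control replicate 2 lay beyond the stressed rats. The difference between 5′ and 3′ probes of the same transcript, a measure of how far the labelled RNA reached from the 3′ end, was taken as the median over 1885 transcripts. It was -0.30, 0.22, -0.30 and -0.18 in control rats and 0.17, 0.15, 0.17 and 0.09 in stressed rats, again with control replicate 2 at the upper end (exact permutation test, two-sided, p = 0.143). The differences of the set and the counts over all probes are therefore given with and without this rat. For transcript coverage, fits with this measure as a covariate and its correlation with each gene of the set are given below.

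Mthfd2 encodes the mitochondrial dehydrogenase and cyclohydrolase that turns methylenetetrahydrofolate into formyltetrahydrofolate, an enzyme known for high levels in embryonic and dividing cells. The array carried 3 probes for it, all designed on the same transcript. Their first bases lay at transcript positions 1899, 1827 and 367, on the minus strand of rn4 at chr4:117517713-117517772, chr4:117517786-117517844 and chr4:117523336-117523395. The inner probe, the only one far from the 3′ end, is shown because it reads another part of the transcript than the pair of outer probes. A reading frame without a stop runs through it, and its place relative to exons and untranslated regions was not analysed here.
Mthfd2 probe at base 367: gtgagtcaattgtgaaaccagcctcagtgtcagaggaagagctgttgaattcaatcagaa

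The Mthfd2 probe at base 1899, the mean of 10 spots and the brightest of the gene, read -0.35, -0.41, -0.38 and -0.36 in control rats and -0.08, 0.04, -0.01 and -0.02 in stressed rats. The 4 stressed rats were all above the 4 control rats, and control replicate 2 was the lowest value of all. The difference was 0.36 (SE 0.06, n = 4 per group), a ratio of 1.28, and it was 0.35 without control replicate 2. The probe at base 1827, read from 1 spot, gave -2.68, -2.45, -2.63 and -2.58 in control rats and -1.83, -1.78, -1.90 and -1.86 in stressed rats. Here too the groups did not overlap, with control replicate 2 the highest control. The difference was 0.74 (SE 0.07), a ratio of 1.68, and 0.79 without control replicate 2.

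The dim inner probe at base 367 behaved differently in a single rat. It read -4.76, -3.76, -4.75 and -4.67 in control rats and -3.78, -3.72, -3.87 and -4.05 in stressed rats. Control replicate 2 lay among the stressed rats, and the other control rats lay below all of them. The difference was 0.63 (SE 0.23) with all rats and 0.87 without control replicate 2. Hence the 3 Mthfd2 probes were all higher in stressed rats, by amounts between 0.36 and 0.74, and they placed control replicate 2 with the other control rats at the 3′ end of the transcript but not at base 367. After normexp background correction the inner probe gave 0.36, and control replicates 1 and 2 then read alike at -3.20.

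**Figure D1:**
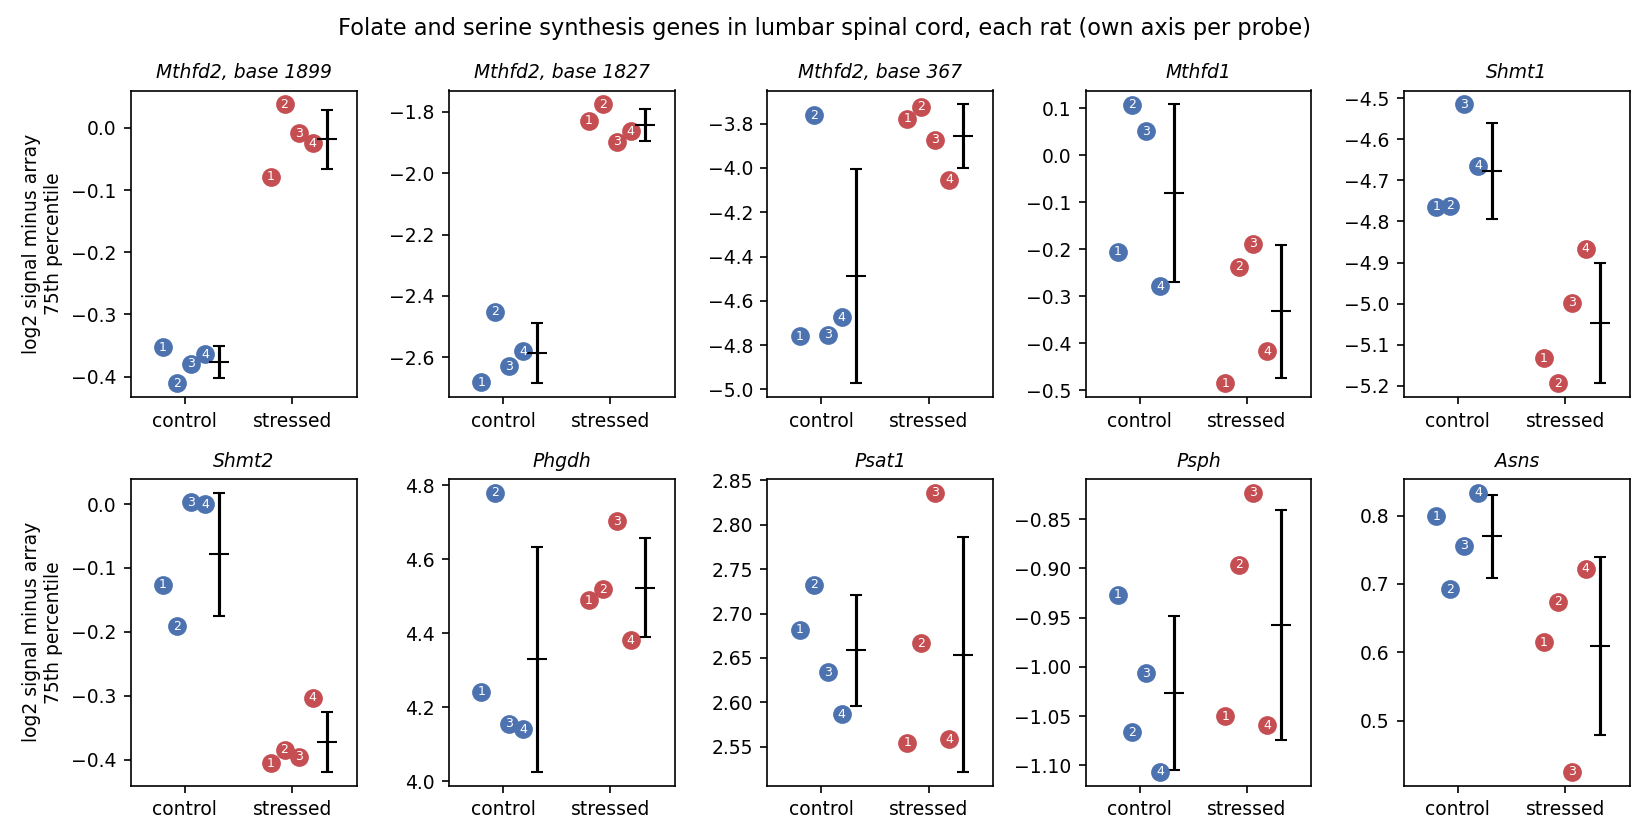
Log2 signal minus the array's 75th percentile (vertical axis, own scale per panel) for the 10 probes of the set in 4 control (blue) and 4 stressed (red) rats, numbered by replicate, with the mean and SD of each group in black. The groups are apart for Mthfd2 at bases 1899 and 1827, Shmt1 and Shmt2, and control replicate 2 lies among the stressed rats for Mthfd2 at base 367 and above them for Phgdh.

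Serine hydroxymethyltransferase 2, encoded by Shmt2, supplies the methylenetetrahydrofolate on which Mthfd2 acts in the mitochondrion. Its probe (rn4 chr7:67494744-67494803, minus strand) read -0.13, -0.19, 0.00 and -0.00 in control rats and -0.41, -0.38, -0.40 and -0.30 in stressed rats. All stressed rats were below all control rats, and control replicate 2 was the control nearest to them. The difference was -0.29 (SE 0.07) and -0.33 without that rat. With the 5′ minus 3′ measure as a covariate it was -0.21.

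Shmt1 encodes the cytosolic form of the same enzyme. Its probe (rn4 chr10:46936605-46936664, minus strand) ends in a stop codon, printed in capitals, in the reading frame that is open before it.
Shmt1 probe: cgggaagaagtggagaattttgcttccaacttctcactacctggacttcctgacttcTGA

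This dim probe read -4.76, -4.76, -4.52 and -4.66 in control rats and -5.13, -5.19, -5.00 and -4.87 in stressed rats. The groups did not overlap, and the difference was -0.37 (SE 0.10), or -0.40 without control replicate 2. Its size depended on the processing, at -0.12 after normexp background correction and -0.57 after quantile normalization, and the groups overlapped in both.

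Mthfd1 encodes the cytosolic enzyme that joins dehydrogenase, cyclohydrolase and formyltetrahydrofolate synthetase activities in a single protein. Its probe (rn4 chr6:98910641-98910700, plus strand) read -0.21, 0.11, 0.05 and -0.28 in control rats and -0.49, -0.24, -0.19 and -0.42 in stressed rats. The groups overlapped, with 2 stressed rats below all control rats. The difference was -0.25 (SE 0.12) and -0.19 without control replicate 2.

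Phgdh, Psat1 and Psph encode the consecutive enzymes of serine synthesis. Phgdh, phosphoglycerate dehydrogenase, catalyses the first step and is known as an astrocyte gene in the nervous system. Its probe (rn4 chr2:193147943-193148002, minus strand) read 4.24, 4.78, 4.15 and 4.14 in control rats and 4.49, 4.52, 4.70 and 4.38 in stressed rats. Control replicate 2 was the highest of the 8 rats and the other control rats were the lowest. The difference was 0.19 (SE 0.16) with all rats and 0.34 without that rat, when the groups no longer overlapped. With the 5′ minus 3′ measure as a covariate the sign turned, to -0.14.

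Psat1, the phosphoserine aminotransferase of the next step, read 2.68, 2.73, 2.63 and 2.59 in control rats and 2.55, 2.67, 2.84 and 2.56 in stressed rats (rn4 chr1:219268422-219268481, minus strand). The stressed rats lay on both sides of the control rats, and the difference was -0.00 (SE 0.08), with a sign that turned to 0.02 without control replicate 2 and to 0.01 after normexp or quantile scaling. Psph, the phosphatase that releases serine, read -0.93, -1.07, -1.01 and -1.11 in control rats and -1.05, -0.90, -0.82 and -1.06 in stressed rats (rn4 chr12:27969823-27969882, minus strand). The groups overlapped, although 2 stressed rats lay above all control rats, with a difference of 0.07 (SE 0.08) and 0.06 without that rat. For Psph it was 0.02 without stressed replicate 3 and 0.11 with the 5′ minus 3′ covariate. For both Psat1 and Psph the difference over all 8 arrays was smaller than its SE.

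Asns encodes asparagine synthetase, which lies outside the folate cycle and is a known ATF4 target. Its probe (rn4 chr4:32759136-32759195, minus strand) is shown because Asns is the member of the set outside both routes. A reading frame without a stop runs through it.
Asns probe: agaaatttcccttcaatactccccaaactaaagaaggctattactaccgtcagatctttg

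The Asns probe read 0.80, 0.69, 0.76 and 0.83 in control rats and 0.61, 0.67, 0.43 and 0.72 in stressed rats. In 3 stressed rats it was below all control rats, and stressed replicate 4 lay above control replicate 2. The difference was -0.16 (SE 0.08), and -0.19 without control replicate 2, when the groups no longer overlapped. It was -0.10 without stressed replicate 3, the lowest rat, and -0.10 with the 5′ minus 3′ covariate.

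**Figure D2:**
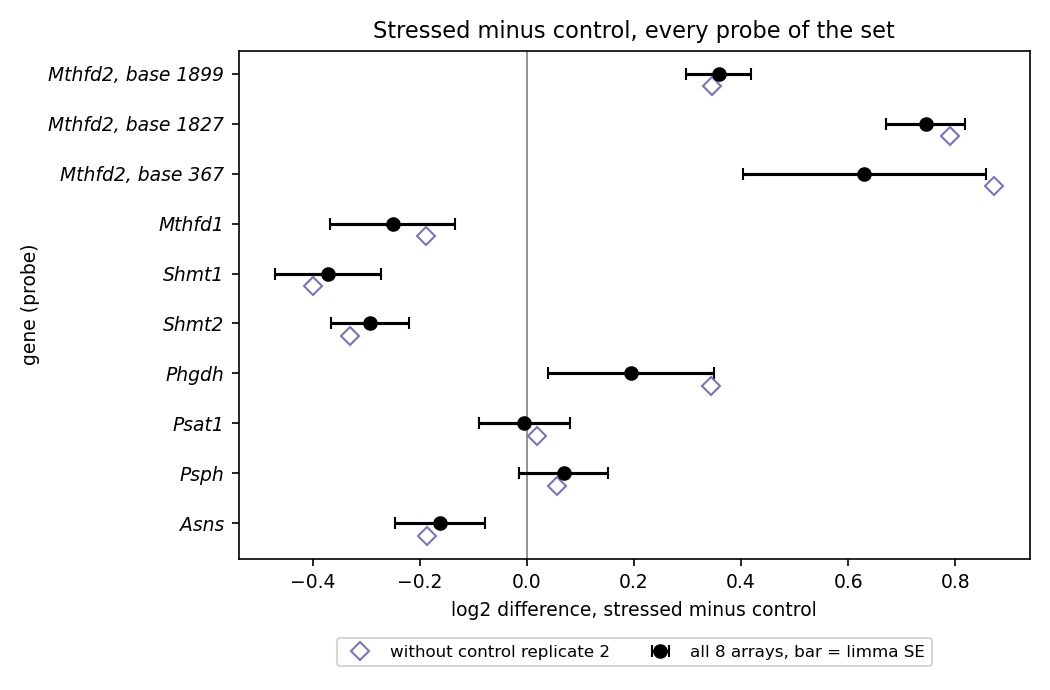
Log2 difference, stressed minus control (horizontal axis), for each probe of the set, with all 8 arrays (black, bar = limma SE) and without control replicate 2 (open diamonds). The 3 Mthfd2 probes lie between 0.36 and 0.74, whereas Shmt1, Shmt2, Mthfd1 and Asns lie between -0.37 and -0.16.

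Taking the brightest probe of each gene, the differences of the set thus ran from -0.37 for Shmt1 to 0.36 for Mthfd2. Of the 10 probes, 4 had groups that did not overlap, 2 of them higher (Mthfd2) and 2 lower (Shmt1 and Shmt2) in stressed rats. Over the 23678 tested probes 12.1% did not overlap, 6.65% with stressed rats higher and 5.44% lower. At an adjusted p below 0.1 limma called 2 of the 10 probes, beside 3.74% of all tested probes, and without control replicate 2 it called 42.4%. Since these genes were selected on this contrast, nothing is read from either count.

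Within each array, Mthfd2 was also set against the mean of the 7 other genes, a comparison in which the scale of the array cancels. This difference was -0.60, -0.74, -0.68 and -0.58 in control rats and -0.16, -0.13, -0.23 and -0.17 in stressed rats. The group means were -0.65 ± 0.07 (SD, n = 4) and -0.17 ± 0.04 (SD, n = 4), and control replicate 2 was the lowest of all. The shift between groups was 0.47, with 0.44 without control replicate 2 and 0.54 with the 5′ minus 3′ measure as a covariate. Since the set was chosen on Mthfd2 against its pathway, this shift restates that choice, and it does not say which of the genes moved.

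**Figure D3:**
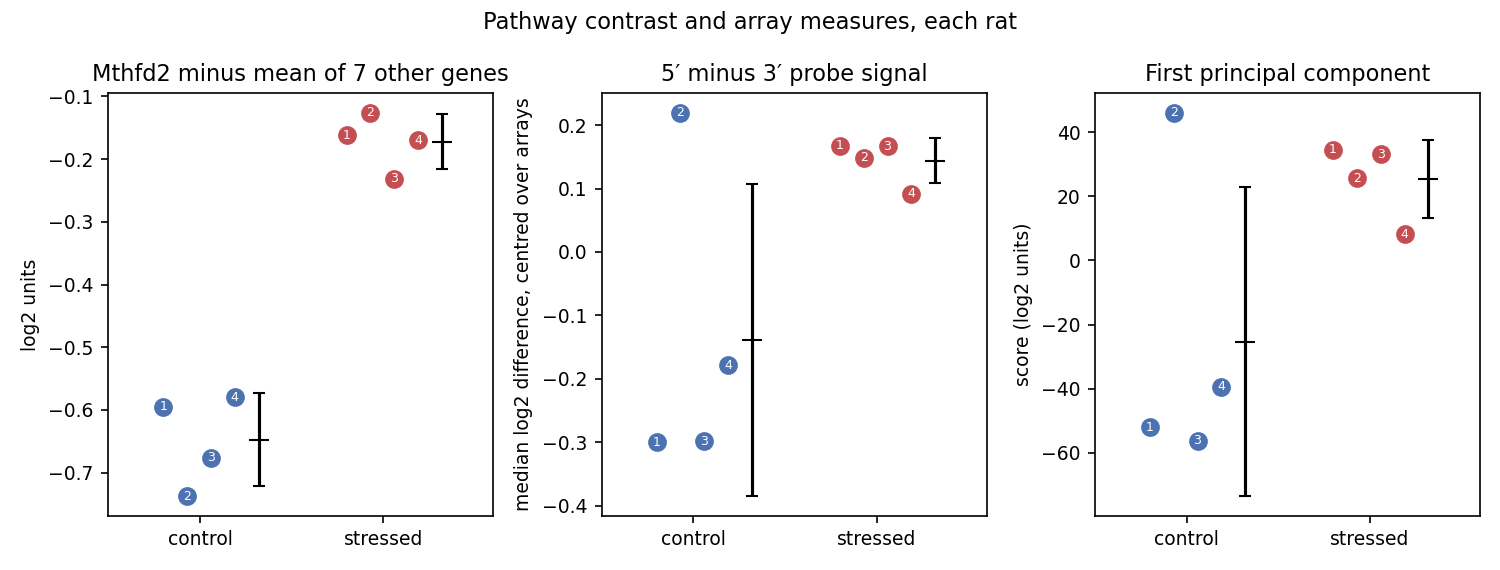
Brightest Mthfd2 probe minus the mean of the 7 other genes in log2 units (left), median 5′ minus 3′ log2 difference (middle) and score on the first principal component (right) for each numbered rat, with mean and SD in black. Control replicate 2 lies at 0.22 and 46.1 above all stressed rats in the middle and right panels and at -0.74 with the control rats in the left panel.

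Across the 8 arrays, the correlation of the other genes with Mthfd2 had the sign of their differences except for Psat1, and is given as a description. Pearson's r was -0.88 for Shmt2, -0.85 for Shmt1, -0.64 for Asns and -0.63 for Mthfd1 (n = 8 arrays). It was 0.47 for Psph, 0.38 for Phgdh and 0.02 for Psat1. With the group means taken out, r lay between -0.28 for Phgdh and 0.60 for Psph, and that of Shmt2 was 0.23. The arrays also differed in transcript coverage, and r with the 5′ minus 3′ measure was 0.89 for Phgdh, -0.82 for Shmt2, -0.73 for Shmt1, -0.67 for Asns and 0.61 for Mthfd2. It was weaker for the other 3 genes, at 0.23 for Psat1, -0.20 for Mthfd1 and 0.10 for Psph. With this measure as a covariate the difference was 0.38 for Mthfd2, -0.37 for Mthfd1, -0.29 for Shmt1 and -0.06 for Psat1, beside the values given above for the other 4 genes.

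Promoter sequences from RefSeq (build GRCr8), 250 bases before to 50 bases after the start, were found for 8 of the 9 genes, and Mthfd1 had no entry. Letters CCAAT, the core of the CCAAT box, were searched on both strands after the sequences had been seen. They occurred 3 times in Mthfd2, 2 times in Psat1, 1 time each in Phgdh and Shmt1, and not in Asns, Psph, Shmt2 or Mthfd1l. Of 33469 promoters, 37.5% held the letters at least 1 time and 3.02% at least 3 times. The 250 bases before the Mthfd2 start (chr4:117380351-117380600, minus strand) are printed with these matches in capitals, since Mthfd2 is the gene on which the set was chosen.
Mthfd2 promoter: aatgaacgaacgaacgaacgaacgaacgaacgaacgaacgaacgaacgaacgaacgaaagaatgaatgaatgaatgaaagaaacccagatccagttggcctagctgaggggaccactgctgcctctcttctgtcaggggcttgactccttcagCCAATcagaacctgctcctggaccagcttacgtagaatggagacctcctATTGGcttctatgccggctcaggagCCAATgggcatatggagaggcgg

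The E-box CACGTG occurred 2 times in the Shmt1 promoter and in none of the 7 other promoters of the set that were searched, and 6.42% of all promoters held it. The cyclic AMP response element TGACGTCA (1.83% of all promoters) and the letters TGATGNAA (3.98%), part of the element that ATF4 binds with its partners, occurred in none of the 8. A match in these windows is a description of letters and not of binding.

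The remaining enzymes and carriers of the folate and methionine cycles were examined as a list of 37 genes outside the set, of which 34 were tested. Their median difference was 0.04, beside 0.06 over all 23678 tested probes. At an adjusted p below 0.1, 1 gene rose and 0 fell, and 8 of the 34 had an unadjusted p below 0.05, beside 4810 of the 23678 tested probes. Over all tested probes limma called 2.77% higher and 0.971% lower in stressed rats. This list and the lists below were drawn up by function, but with earlier results of these data known. Their calls may therefore not be independent of those results.

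The gene that rose was Slc25a32, which encodes the carrier that brings folate into the mitochondrion, where Mthfd2 and Shmt2 act. Its dim probe read -4.81, -4.50, -4.83 and -4.50 in control rats and -4.01, -3.83, -4.02 and -3.86 in stressed rats. All 4 stressed rats were above the control rats, and control replicate 2 lay with the latter. The difference was 0.73 (SE 0.11; limma, adjusted p = 0.0431), and the adjusted p ranged from 0.00113 to 0.275 over the 17 alternative settings, 8 of which called it. After normexp background correction the difference was 0.42 (limma, adjusted p = 0.275). Without control replicate 2 it was 0.78 (limma, adjusted p = 0.00227), and leaving out any other rat ended the call, at adjusted p values from limma of 0.101 to 0.164.

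The largest difference of the list belonged to Mat2a, which encodes the enzyme that makes S-adenosylmethionine. It read -3.29, -1.92, -3.04 and -2.91 in control rats and -1.76, -1.51, -1.43 and -1.87 in stressed rats. The groups just failed to overlap, with control replicate 2 next to the stressed rats. The difference of 1.15 (SE 0.28) did not pass the test (limma, adjusted p = 0.101; 0.000890 to 0.277 over the 17 settings, 6 of which called it). Without control replicate 2 it was 1.44 and passed, beside 30.5% of all tested probes called higher in that fit. With the 5′ minus 3′ covariate it was 0.46. A second Mat2a probe gave 0.47 (SE 0.23) with overlapping groups.

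Cth, the cystathionine lyase of transsulfuration, differed by 0.74 (SE 0.20; limma, adjusted p = 0.124). Gldc, the decarboxylase of the glycine cleavage system, differed by 0.30 (SE 0.09; limma, adjusted p = 0.137). In both genes all stressed rats were above all control rats, yet neither passed the test with all 8 arrays. Without control replicate 2 both passed, at 0.91 and 0.30, beside 30.5% of all tested probes called higher in that fit.

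Mthfd2l, the mitochondrial relative of Mthfd2, read -1.70, -2.55, -1.81 and -1.84 in control rats and -2.22, -2.11, -2.57 and -2.01 in stressed rats. Control replicate 2 again lay with the stressed rats. The difference of -0.25 (SE 0.21) was opposite in sign to that of Mthfd2 and did not pass the test, and without that rat it was -0.45 and passed. Aldh1l1 and Aldh1l2, the cytosolic and mitochondrial formyltetrahydrofolate dehydrogenases, differed by -0.08 (SE 0.06) and 0.48 (SE 0.29). Tyms, thymidylate synthase, differed by -0.13 (SE 0.13), and by -0.06 without control replicate 2. None of these 3 genes passed the test with all arrays, and Aldh1l2 passed without control replicate 2, at 0.76. In the fit without that rat limma called 30.5% of all tested probes higher and 11.9% lower.

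For serine, glycine and related amino acids, 19 of 20 listed genes were tested, with a median difference of 0.03, which turned to -0.01 without control replicate 2. No gene of this list was called by limma, and 3 of the 19 had an unadjusted p below 0.05, beside 4810 of the 23678 tested probes. The largest differences were those of transporters. Slc1a4, a neutral amino acid transporter of astrocytes that carries serine, differed by 0.64 (SE 0.30; limma, adjusted p = 0.280) and by 0.97 without control replicate 2. Slc7a10, the exchanger Asc-1 that carries glycine and D-serine, differed by 0.45 (SE 0.13; limma, adjusted p = 0.135), and Slc1a5 by 0.36 (SE 0.12; limma, adjusted p = 0.178). In Slc1a5 and in Slc7a10 all 4 stressed rats were above the control rats. The Slc7a10 groups were barely apart, as control replicate 2 and stressed replicate 4 both rounded to 2.32. All 3 transporters passed without control replicate 2, a fit in which limma called 30.5% of all tested probes higher.

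In the ATF4 pathway, 36 of 39 listed genes were tested and limma called none, with a median difference of -0.04. Of the 36, 6 had an unadjusted p below 0.05, beside 4810 of the 23678 tested probes. In 7 genes, Ddit3 among them, all stressed rats were below all control rats and in 0 above, beside 5.44% and 6.65% of all tested probes. The same counts were 2 below and 5 above among the 34 folate and methionine genes. They were 1 and 2 among the 19 serine and glycine genes, and 1 and 0 among the 9 replication and division genes described below. Atf4 itself read 3.13, 3.18, 3.01 and 3.04 in control rats and 3.26, 3.32, 3.37 and 3.11 in stressed rats. Only stressed replicate 4 fell within the control range, and the difference of 0.18 (SE 0.08; limma, adjusted p = 0.272) did not pass the test. Among genes that ATF4 is known to induce, Ddit3 differed by -0.10 (SE 0.06), Trib3 by -0.05 (SE 0.25) and Chac1 by 0.02 (SE 0.09). The mitochondrial carboxykinase gene Pck2 differed by -0.26 (SE 0.09; limma, adjusted p = 0.189), with all stressed rats below all control rats. It passed without control replicate 2 at -0.29, beside 11.9% of all tested probes called lower in that fit. Ddit3, Trib3 and Chac1 did not pass either way, and Trib3 then turned to 0.16.

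The largest difference of this list was that of Eif2ak3, which encodes PERK, a kinase of the endoplasmic reticulum upstream of ATF4. It read -1.92, -2.48, -1.85 and -1.88 in control rats and -2.66, -2.57, -2.52 and -2.53 in stressed rats. The difference was -0.54 (SE 0.14; limma, adjusted p = 0.118), and -0.69 without control replicate 2, when it passed. All 4 stressed rats were below the control rats. Eif2ak1, another kinase of the same factor eIF2, differed by -0.29 (SE 0.11; limma, adjusted p = 0.214) and passed without that rat at -0.40. In the fit without control replicate 2 limma called 11.9% of all tested probes lower.

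Genes of DNA replication and division were examined because Mthfd2 is known from dividing cells. Of 10 listed genes 9 were tested, 0 rose and 1 fell, with a median difference of -0.13, beside 0.971% of all tested probes called lower. Of the 9, 2 had an unadjusted p below 0.05, beside 4810 of the 23678 tested probes. The gene that fell was Tk1, thymidine kinase, which read -2.72, -2.64, -2.61 and -2.60 in control rats and -2.87, -3.13, -2.91 and -2.99 in stressed rats. The difference was -0.33 (SE 0.08; limma, adjusted p = 0.0936), and the adjusted p ranged from 0.00530 to 0.368 over the 17 alternative settings, 7 of which called it. All 4 stressed rats were below the control rats. Without control replicate 2 the difference was -0.33 (limma, adjusted p = 0.0192), and leaving out any other rat ended the call, at adjusted p values from limma of 0.177 to 0.268. Mcm2, Rrm2 and Top2a differed by -0.25 (SE 0.12), 0.19 (SE 0.08) and -0.16 (SE 0.27), and none of the 3 passed the test with all arrays. Rrm2 passed without control replicate 2, at 0.23, while Mcm2 (-0.22) and Top2a (-0.10) did not. Of all tested probes 30.5% were called higher in that fit. A dim second probe of Mcm2 had the opposite sign, at 0.36 (SE 0.44). A dim second probe of Rrm2 gave 1.03 (SE 0.36; limma, adjusted p = 0.183), with all stressed rats above all control rats.

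**Figure D4:**
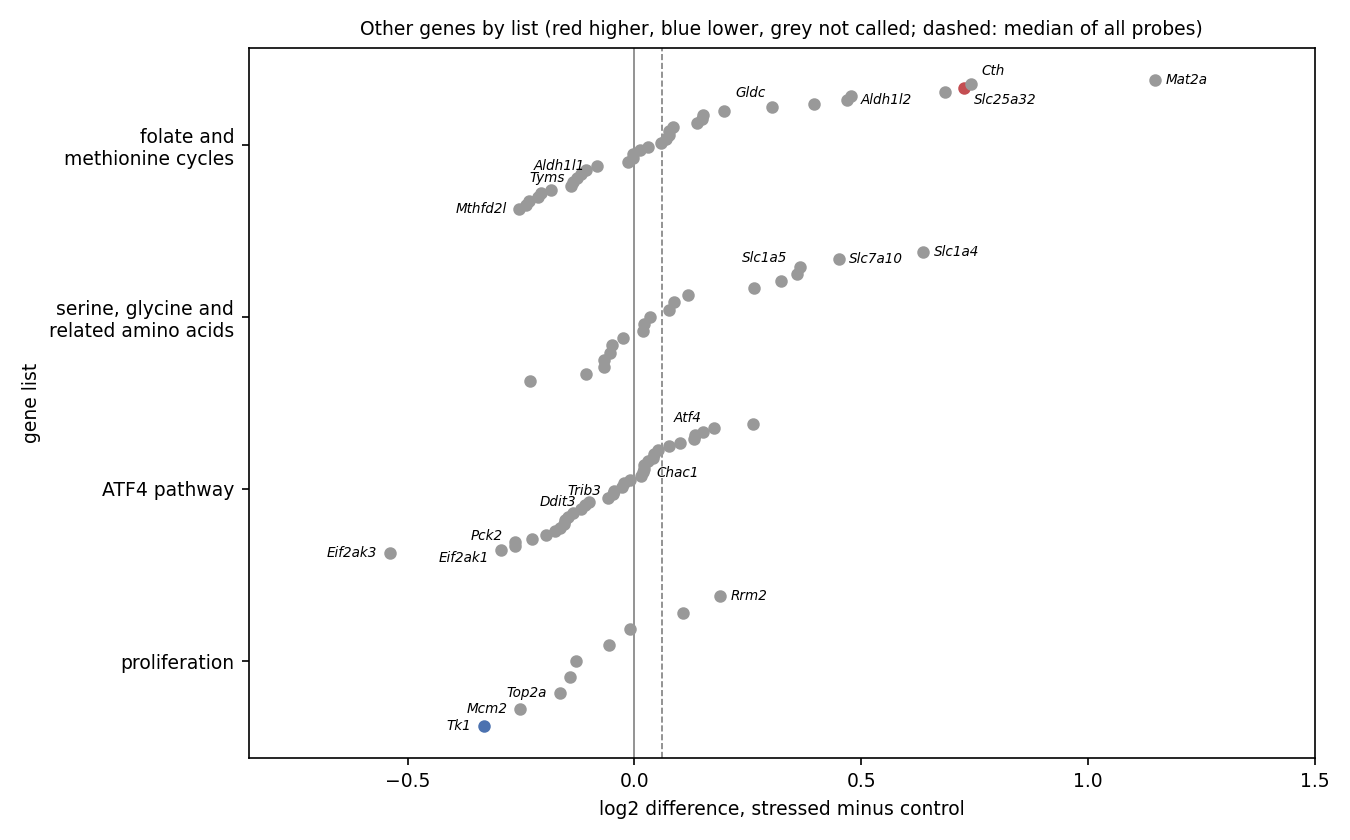
Log2 difference, stressed minus control (horizontal axis), for the brightest tested probe of each gene in 4 lists, ordered by size within a list. Of 98 genes, Slc25a32 (red) was called higher and Tk1 (blue) lower, and the dashed line marks the median of all tested probes, 0.06.

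Leaving out control replicate 2 changed these counts more than leaving out any other rat. Of the 98 tested genes in the 4 lists, 36 then passed the test, 22 higher and 14 lower, beside 30.5% of all tested probes higher and 11.9% lower. In the folate and methionine list 11 genes were higher and 3 lower, and in the serine and glycine list 6 were higher and 1 lower. In the ATF4 list 4 were higher, among them Atf4 at 0.21, and 9 lower, and in the proliferation list 1 was higher and 1 lower. Without any other single rat limma called 0 of the 98 genes, while 12 to 18 had an unadjusted p below 0.05.

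By pattern over the 8 arrays, a measure that carries the group contrast by which Mthfd2 was chosen, the names most like the brightest Mthfd2 probe among 16216 compared were Myl12b (r = 0.99), Rab11a (0.99), Gprc5b (0.98), Gdi2 (0.98) and Dnajb9 (0.98). Of all names compared, 179 (1.10%) had an r above 0.9. Dnajb9, a co-chaperone of the endoplasmic reticulum, read -0.43, -0.39, -0.42 and -0.45 in control rats and 0.04, 0.18, 0.05 and -0.01 in stressed rats, a difference of 0.49. Rab11a, a small GTPase of recycling endosomes, differed by 0.30, as did Myl12b, a myosin light chain. Gprc5b, an orphan receptor, differed by 0.31 and Gdi2, a regulator of Rab proteins, by 0.19. In all 5 the stressed rats were above the control rats and control replicate 2 lay with the latter, and without it r was 0.98 to 0.99. These differences are a description with no test.

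As the samples are bulk tissue, more RNA per cell and more cells of a type cannot be told apart. The 7 astrocyte markers tested had a median difference of 0.26, with 6 of 7 higher in stressed rats and none called by limma. Of the 7, 1 had an unadjusted p below 0.05, beside 4810 of the 23678 tested probes. Leaving out control replicate 2, limma called 3 of the 7 higher, beside 30.5% of all tested probes. Their summed signal, led by Aldoc, was 8.09, 8.20, 7.88 and 7.89 in control rats and 8.36, 8.17, 8.21 and 8.11 in stressed rats on the log2 scale. As for Phgdh, control replicate 2 was the highest control. It was also the highest control for the summed markers of oligodendrocytes, endothelium, microglia, motor neurons and red blood cells. For the sums of neurons, Schwann cells, and meninges and fibroblasts, control replicate 1 was the highest control. Among 6 oligodendrocyte markers (median 0.20) Mog was called higher, at 0.90 (SE 0.18; limma, adjusted p = 0.0721) with all 4 stressed rats above the control rats, and at 1.03 without control replicate 2. The adjusted p of Mog ranged from 0.00173 to 0.220 over the 17 settings, 7 of which called it, and the difference was 0.53 with the 5′ minus 3′ covariate. Their sum, led by Mbp, ran from 7.82 to 8.38 in control rats and from 7.95 to 8.42 in stressed rats. Among 4 endothelial markers (median 0.23) Pecam1 was called higher, at 0.40 (SE 0.09; limma, adjusted p = 0.0927) with the groups apart, and at 0.39 without that rat. The adjusted p of Pecam1 ranged from 0.00480 to 0.266, with 7 of the 17 settings calling it. Leaving out any rat other than control replicate 2 ended both calls. Without control replicate 2 limma called 3 of the 6 oligodendrocyte markers higher (median 0.32) and 3 of the 4 endothelial markers (median 0.34). The oligodendrocyte markers called included Cnp, at 2.33. With all arrays Cnp differed by 1.69 (SE 0.58; limma, adjusted p = 0.181), with overlapping groups.

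With all arrays limma called no marker among 6 of microglia (median 0.08), 6 of neurons (0.14), 3 of motor neurons (-0.19), 4 of Schwann cells (-1.10), 4 of meninges and fibroblasts (-0.30) and 2 of red blood cells (-0.18). Unadjusted p values below 0.05 numbered 2 among neuronal markers and 0 among the other 5 lists. Over all tested probes they numbered 4810 of 23678. Without control replicate 2 the medians, in the order above, were 0.14, 0.13, -0.07, -1.07, -0.43 and -0.07. The neuronal sum was 7.49, 7.41, 7.37 and 7.35 in control rats and 7.57, 7.64, 7.40 and 7.47 in stressed rats, and the microglial sum ran from 2.71 to 3.07 in both groups together. The Schwann cell sum varied most between rats, from 2.80 to 6.18 in control rats and from 2.75 to 4.43 in stressed rats, with control replicate 1 the highest. Without control replicate 2 limma called Nefl and Syt1 higher and Slc17a6 lower among neuronal markers. Among those of motor neurons it called Chat higher and Isl1 lower, and among those of microglia Csf1r higher. In the same fit 30.5% of all tested probes were called higher and 11.9% lower. The part of cell composition in the values of Mthfd2 and the other genes was not tested.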

How the data were processed

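RNA of 4 stressed and 4 control rats was read on 1 Agilent array each. Per the file headers, the deposited values are intensity after background subtraction on each array by Feature Extraction 10.7.3.1, and probe positions are on rn4. Control spots (4259) and outlier spots were left out. The log2 processed signal minus the array's 75th percentile was averaged over the spots of a probe. Probes well above background (0.5 of spots) on at least 4 arrays were tested (23678), with limma 3.58.1 (lmFit, eBayes; R 4.3.3, files read by the data.table package, version 1.17.8), and p adjusted by Benjamini-Hochberg over all of them. The fit was tested on simulated data. Array measures were compared over all 70 choices of 4 arrays, with a smallest two-sided p of 0.0286. Figures and sequences used Python 3.11.15, pandas 2.3.3 and matplotlib 3.10.9.

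Named were all members with every probe, genes chosen for their roles, list genes called, up to 3 others per list with the largest difference, and the 5 names most like Mthfd2. The brightest tested probe stands for a gene. Members and lists were chosen with earlier results of these data known. The 5′ minus 3′ measure used probes at least 300 bases apart. Alternatives were normexp (offset 50), quantile normalization, the authors' value table, other filters on dim probes, a variance trend, array weights, a replicate block, the 5′ minus 3′ covariate, other probes and leaving out each rat.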

Additional observations from a re-analysis of the deposited data

Results flagged for a closer look

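A control rat lay far from the other 3 in 4 of the 54 groups of 4 rats examined, where chance gives about 1 in 20, or 2.7 groups. In each case it was control replicate 2, and the number is the gap to the nearest other rat as a share of the whole range of the group (above Dixon's limit for 4 rats). The share was 0.912 for the Mthfd2 probe at base 367, where this rat read -3.76 and the others -4.76 to -4.67. It was 0.842 for Phgdh, at 4.78 against 4.14 to 4.24. For Mthfd2l it was 0.839, at -2.55 against -1.84 to -1.70, and for the first principal component 0.835, at 46.1 against -56.2 to -39.4.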

How the results depend on the processing

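The Mthfd2 difference kept its sign and ran from 0.34 to 0.38 over 17 alternatives with the same probe, and was 0.74 and 0.63 with the probes at bases 1827 and 367. Mthfd2 minus the other genes moved from 0.47 to 0.54 with the 5′ minus 3′ covariate, 0.86 with the probe at base 1827 and 0.75 with that at base 367. The same covariate gave -0.14 for Phgdh, which turned its sign, and -0.21 for Shmt2. Shmt1 was -0.12 with normexp and -0.57 with quantile normalization. The sign of Psat1 turned within a range of -0.07 to 0.03.

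Calls over all probes, 885 (655 higher and 230 lower), depended far more on the setting. They numbered 215 with normexp, 3010 with no filter on dim probes, 11983 with array weights (control replicate 2 had a weight of 0.107) and 2390 with the covariate (1151 higher and 1239 lower). Quantile normalization gave 685 higher and 495 lower. At an adjusted p below 0.05 there were 113 calls, and 4810 probes had an unadjusted p below 0.05. List genes called, 2, were 0 with normexp, 5 with quantile normalization and with a variance trend, 11 with no filter, 43 with array weights and 7 with the covariate. Leaving out 1 rat in turn gave 0 to 10036 probes and 0 to 36 list genes, the highest of each without control replicate 2, and at most 72 probes without any other rat. Apart from the construction of each setting, the cause was not tested.

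With replicate number as a replicate block, limma called 0 probes (4292 at an unadjusted p below 0.05) and 0 list genes (13). The calls of Slc25a32, Mog, Pecam1 and Tk1 ended there, at adjusted p values from limma of 0.207, 0.211, 0.215 and 0.228. Rats of the same number lay in the same column of the slide. Their deviations from the group means correlated at 0.10, 0.12, -0.09 and 0.31, not all above 0.1. The numbers were therefore not taken to pair rats, and not every rat correlated best with its own number.

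The dim probes of Shmt1, Mthfd2 at base 367 and Slc25a32 moved with normexp background correction, to -0.12, 0.36 and 0.42. Row on the slide cannot be told apart from group.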
